A study of Homo sapiens with 6 samples.

Results

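The genes described here make cholesterol and fatty acids, sense sterols or export them. A list of 36 gene symbols was matched to the probe sets of the arrays through the platform annotation, and 33 of the 36 genes had a probe set that names 1 gene, out of 19775 genes measured in all. The list was split by role into 18 genes of sterol synthesis (16 measured), 11 genes of sterol sensing and efflux (11 measured) and 7 fatty acid genes (6 measured). FDFT1, CYP51A1 and FADS1 had no such probe set and were not analysed here. Where several probe sets named a gene, the brightest, by its mean on all 6 arrays, stands for it. MV4;11 is a human acute myeloid leukaemia line with an MLL-AF4 rearrangement. The cells were kept for 3 h with 25 nM cortistatin A (CA, 3 arrays), a steroidal alkaloid that inhibits the Mediator kinases CDK8 and CDK19, or with the solvent DMSO (3 arrays). All wells belonged to this single line and shared the same serum-containing medium, and the labels describe triplicate plating without saying that the wells were separate cultures, so each p-value reflects the spread among these 6 samples alone, and that spread may be technical.

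Cholesterol is built from acetyl-CoA through mevalonate, squalene and lanosterol by enzymes whose genes are largely switched on together by the transcription factor SREBP-2, the product of SREBF2. SREBP-1, the product of SREBF1, acts mainly on fatty acid genes. When membranes are poor in sterol, SCAP carries the SREBP precursors to the Golgi, where proteases release the active factors, and when sterol is plentiful the INSIG proteins hold SCAP back in the endoplasmic reticulum. Excess sterol is sensed by LXR, a nuclear receptor encoded by NR1H3 and NR1H2 that switches on the exporters ABCA1 and ABCG1 and the ubiquitin ligase MYLIP. In mouse liver and in flies, CDK8 has been described as a kinase that limits nuclear SREBP.

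The arrays resembled one another closely, with correlations across genes of 0.9975 to 0.9979 within groups and 0.9969 to 0.9974 between them. Of 10 myeloid leukaemia markers 9 were measured, and 9 of these averaged more than the median over all values (3.75 on the log2 scale), among them the lysozyme gene LYZ and the receptor gene FLT3, while HOXA9 was not measured. Of 9 measured markers of other cell types 6 were also above that median, among them PECAM1, which myeloid cells express too, and the T cell gene CD3E, so this median does not separate expressed from silent genes. The epithelial gene EPCAM, the B cell gene MS4A1 and the liver gene ALB were below it. LYZ and FLT3 were the brightest of the measured myeloid markers. The dimmest, SPI1, averaged 4.36 in both groups, less than COL1A1 of the other list (6.12 in CA and 6.10 in DMSO). None of the markers of either list passed the limma test between the groups, and 3 myeloid and 0 other markers had an unadjusted p under 0.05. For the beta-actin control transcript the 3' signal exceeded the 5' signal, a sign of RNA length, by 1.88, 1.89 and 2.08 in the CA arrays and 1.77, 1.69 and 1.79 in the DMSO arrays. The CA arrays were all higher (exact permutation test, two-sided, p = 0.1, which is the lowest value possible with 3 arrays a group). With this value as a covariate limma called 0 genes and 0 of the 33 members, while 1768 genes and 7 members had an unadjusted p under 0.05. Since the groups did not overlap in this value, it and the treatment cannot be told apart. A covariate also leaves fewer residual degrees of freedom than the 4 of the fit without it. What that alone does to the calls was not tested. The mean 3' minus 5' signal of all 21 control transcripts overlapped between the groups (two-sided exact permutation p = 0.5). It was 0.602 to 0.655 in the CA arrays and 0.535 to 0.629 in the DMSO arrays. These 21 were all controls of the array with both signals, and were not limited to transcripts of the cells. Their mean is thus not a measure of the cells' RNA alone.

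Cortistatin A and DMSO were compared to see which lipid genes respond within hours of Mediator kinase inhibition. MSMO1, an enzyme of the post-lanosterol part of cholesterol synthesis, and INSIG1, the sterol-regulated retention protein, rose with cortistatin A, by 1.56-fold and 1.32-fold. They were the only members, 2 of 33, past a limma adjusted p under 0.05 over all 19775 genes, where 0.582% of genes passed in either direction and 0.445% passed as higher. No member passed as lower, where 0.137% of genes did. The call of INSIG1 was narrow (limma adjusted p = 0.0499). An unadjusted limma p under 0.05 was reached by 9 members (27.3% of the 33), where 12.6% of all genes reached it. Of these 7 were higher and 2 lower, where 6.81% of all genes were higher and 5.83% lower at that threshold. The groups of arrays did not overlap for 11 members (33.3%), where 19.4% of all genes did not overlap. Of these 8 were higher and 3 lower, where the shares of all genes were 10.2% and 9.22%. The sets differ in brightness, as 32 of the 33 members but 12622 of all genes averaged more than the median over all values. In a fit of such genes alone, 321 of 12622 genes and 3 of 32 members passed. There 2311 genes and 10 members had an unadjusted limma p under 0.05. The groups did not overlap for 30.8% of 13 housekeeping genes and 33.3% of 9 myeloid markers. The arrays measured RNA from whole wells, so a change in all cells and a larger change in some of them cannot be told apart. The list was drawn up with earlier results of these data known, and these shares describe it only.

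**Figure D1:**
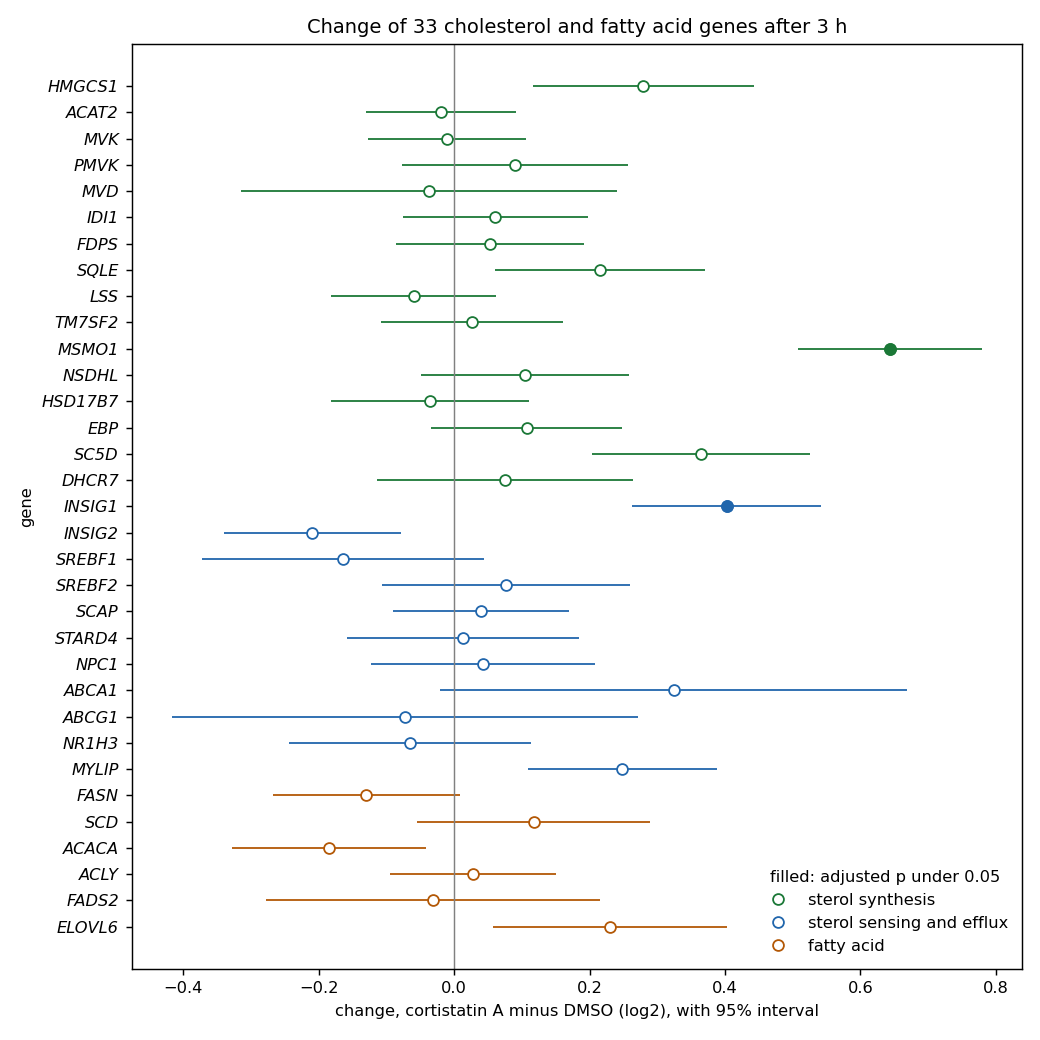
Change of each of the 33 measured genes, cortistatin A minus DMSO, on the log2 scale (points) with the 95% interval of the limma fit (lines), in order of their role. The filled points MSMO1 and INSIG1 passed the adjusted threshold, and most other intervals include 0.

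The 3 roles are described by counts and medians. In sterol synthesis 11 of 16 changes were positive and the median was 0.07 on the log2 scale, beside 0.01 over all genes. Relative to the DMSO mean of each gene, the median of these 16 genes was 0.076, 0.055 and 0.079 on the CA arrays, and -0.027, -0.0043 and 0.0067 on the DMSO arrays, without overlap. The DMSO medians lie near 0 by construction, and how often other sets of 16 genes do not overlap was not tested. For sensing and efflux the groups overlapped, with 7 of 11 changes positive and a median of 0.04. Among the fatty acid genes 3 of 6 changes were positive, the median was -0.0018 and the groups overlapped. Centring the arrays on housekeeping genes lowered the median over all genes from 0.0065 to -0.048. It took the sterol synthesis median to 0.014, the sensing and efflux median to -0.015 and the fatty acid median to -0.056.

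The upstream sequences of 4 genes with positive changes, MSMO1, INSIG1, SC5D and HMGCS1, are shown with that of INSIG2, whose change was negative, because sterol genes are known to be controlled by short elements close to their starts. Each is the 250 bases before a transcription start, written 5' to 3' along the gene, from RefSeq on GRCh38.p14. The windows are chr4:165327419-165327668 (plus strand) for MSMO1, chr7:155297628-155297877 (plus strand) for INSIG1, chr11:121292521-121292770 (plus strand) for SC5D, chr5:43313413-43313662 (minus strand) for HMGCS1 and chr2:118088221-118088470 (plus strand) for INSIG2. SC5D, HMGCS1 and INSIG2 have 2 starts in that table, and the window of the first listed is shown. Capitals mark CCAAT (bound by NF-Y, a usual partner of SREBP), CACGTG (an E-box) and CACNCCAC (the core of a sterol regulatory element), each searched on both strands, so that CCAAT on the other strand reads ATTGG. No marked matches overlap one another.
MSMO1: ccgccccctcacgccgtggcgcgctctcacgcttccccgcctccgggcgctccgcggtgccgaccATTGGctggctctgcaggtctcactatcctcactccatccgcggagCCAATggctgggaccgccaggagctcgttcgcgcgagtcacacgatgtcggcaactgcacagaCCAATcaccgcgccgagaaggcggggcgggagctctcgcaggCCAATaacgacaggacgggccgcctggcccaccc
INSIG1: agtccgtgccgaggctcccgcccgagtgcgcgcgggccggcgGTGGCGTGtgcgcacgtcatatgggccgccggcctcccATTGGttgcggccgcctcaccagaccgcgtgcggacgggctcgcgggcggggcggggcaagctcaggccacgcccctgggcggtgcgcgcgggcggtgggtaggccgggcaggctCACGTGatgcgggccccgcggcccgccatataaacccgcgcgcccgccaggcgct
SC5D: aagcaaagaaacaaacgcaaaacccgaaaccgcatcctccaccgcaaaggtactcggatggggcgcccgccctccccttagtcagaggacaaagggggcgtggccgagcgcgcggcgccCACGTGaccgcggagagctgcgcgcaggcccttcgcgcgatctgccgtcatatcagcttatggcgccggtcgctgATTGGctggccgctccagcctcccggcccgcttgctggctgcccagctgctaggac
HMGCS1: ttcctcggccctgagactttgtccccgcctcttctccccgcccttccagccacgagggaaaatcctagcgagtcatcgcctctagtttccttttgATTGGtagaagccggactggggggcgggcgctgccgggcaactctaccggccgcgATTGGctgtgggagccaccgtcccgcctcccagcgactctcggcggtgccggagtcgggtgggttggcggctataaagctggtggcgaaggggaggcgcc
INSIG2: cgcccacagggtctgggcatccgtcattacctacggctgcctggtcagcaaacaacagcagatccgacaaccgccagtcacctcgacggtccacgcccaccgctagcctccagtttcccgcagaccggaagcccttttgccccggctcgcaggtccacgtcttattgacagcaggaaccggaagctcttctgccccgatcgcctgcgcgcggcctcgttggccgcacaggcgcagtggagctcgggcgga
MSMO1 holds 4 CCAAT matches, at 185 to 181, 139 to 135, 76 to 72 and 34 to 30 bases before its start. INSIG1 holds 1 CCAAT, 1 CACGTG and 1 match to CACNCCAC, which lies on the other strand 208 to 201 bases before the start and reads CACGCCAC. SC5D holds 1 CCAAT and 1 CACGTG, HMGCS1 holds 2 CCAAT, and the INSIG2 window holds none of the marked letters. Upstream windows were found for 31 of the 36 listed genes. Of these 31 windows, 18 held CCAAT (58.1%, beside 32.0% of all 35116 windows in the table and 34.1% of the 15384 genes that were measured and have a window, at 1 window each). These were ACLY, DHCR7, EBP, FDPS, HMGCS1, HSD17B7, INSIG1, LSS, MSMO1, MVD, MVK, MYLIP, NSDHL, SC5D, SCD, SREBF2, STARD4 and TM7SF2. Among them LSS, MVK, MVD and HSD17B7 had negative differences, and the others had positive ones. Windows without CCAAT included those of ABCA1, ELOVL6, IDI1, NPC1, PMVK and SCAP, with positive differences. They also included those of INSIG2, SREBF1 and ACACA, with negative differences. Whether a motif goes with the direction of change was not tested. CACNCCAC was in 4 of the 31 (12.9%, beside 4.87% of all windows and 4.86% of the measured genes), and these were ABCA1, INSIG1, SCD and SREBF2. CACGTG was in 4 (12.9%, beside 6.34% of all windows and 7.83% of the measured genes), and these were ABCA1, INSIG1, SC5D and SCAP. The GC box GGGCGG, searched on both strands and not capitalised, was in 28 (90.3%, beside 42.6% of all windows and 56.3% of the measured genes). These are matches of letters only, and binding was not measured.

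In sterol synthesis the 4 largest differences were those of MSMO1, SC5D, HMGCS1 and SQLE, and only that of MSMO1 passed the test. MSMO1 (formerly SC4MOL) oxidises methyl groups of the sterol ring so that they can be removed after lanosterol. It stood at 9.22, 9.13 and 9.23 on the log2 scale in the CA arrays, against 8.48, 8.59 and 8.58 in the DMSO arrays. Every CA array was above every DMSO array by more than the spread within either group. The change was 0.64 ± 0.06 (limma SE, adjusted p = 0.0187, n = 3 arrays per group), with a 95% interval of 0.51 to 0.78. This is the only probe set of MSMO1. Without any 1 of the 6 arrays its adjusted p was 0.0748 to 0.107, with changes of 0.61 to 0.68. With the beta-actin covariate the change was 0.62 and the limma adjusted p 0.440, and with the signal of all control transcripts as the covariate they were 0.61 and 0.105.

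SC5D, which sets a double bond in the sterol ring near the end of the pathway, stood at 7.37, 7.30 and 7.37 in the CA arrays and 7.05, 7.04 and 6.86 in the DMSO arrays. The groups did not overlap, and DMSO replicate 3 was the lowest. The difference was 0.37 ± 0.07 (limma adjusted p = 0.0943, n = 3 per group), short of the threshold. It passed when dim genes were left out, with the same difference (limma adjusted p = 0.0344, beside a range of 0.0024 to 0.955 over the alternatives). The other probe set of SC5D was dim and stood at -0.016.

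HMGCS1 makes HMG-CoA, the entry to the mevalonate part of the pathway. It stood at 7.34, 7.17 and 7.36 in the CA arrays and 6.96, 7.06 and 7.02 in the DMSO arrays, without overlap. The difference was 0.28 ± 0.07 (limma adjusted p = 0.184, n = 3 per group). The second HMGCS1 probe set, which was dimmer but above the median, gave -0.07 with overlapping groups, and with the mean of both the difference was 0.11. SQLE, the epoxidase that turns squalene towards the sterol ring, stood at 9.36, 9.24 and 9.21 in the CA arrays and 9.02, 9.14 and 9.01 in the DMSO arrays. The difference was 0.22 ± 0.06 (limma adjusted p = 0.250, n = 3 per group), and the groups did not overlap. All 4 probe sets of SQLE had a positive difference, of 0.04 to 0.30.

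EBP, an isomerase of the sterol ring, had 8.91, 8.88 and 9.01 in the CA arrays and 8.80, 8.80 and 8.89 in the DMSO arrays, which overlapped, and a difference of 0.11 ± 0.06 (limma adjusted p = 0.520). NSDHL, which acts after MSMO1 in the removal of methyl groups, had 7.60, 7.49 and 7.68 in the CA arrays and 7.53, 7.46 and 7.46 in the DMSO arrays. Its groups overlapped as well, at 0.10 ± 0.06 (limma adjusted p = 0.565). The difference between MSMO1 and NSDHL was not tested.

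The other 10 measured genes of sterol synthesis lay between -0.06 and 0.09, with limma SE of 0.05 to 0.12 and adjusted p of 0.659 to 0.950. They are the thiolase ACAT2, the mevalonate kinases MVK and PMVK, the decarboxylase MVD, the isomerase IDI1, the farnesyl diphosphate synthase FDPS, the lanosterol synthase LSS, the reductases TM7SF2 and DHCR7, and HSD17B7, which reduces a sterol ketone. Their groups of arrays overlapped in every case. For FDPS the 95% interval of the difference was -0.09 to 0.19, and for LSS it was -0.18 to 0.06, so changes as large as that of MSMO1 lay outside both. IDI1 and HSD17B7 were read from probe sets of the _x_at type, which may bind related transcripts.

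**Figure D2:**
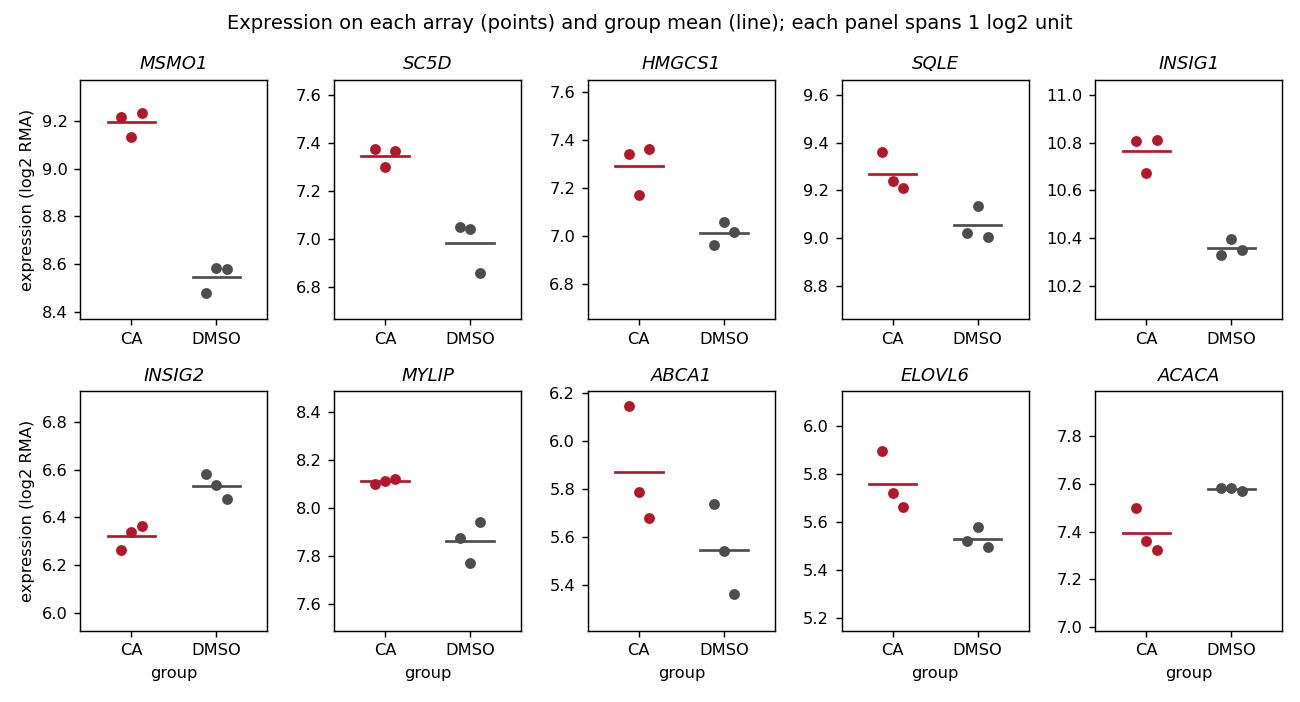
Expression of 10 genes on each array (points) in the CA and DMSO groups, with the group mean as a line, in log2 RMA units. In MSMO1 and INSIG1 the CA arrays sit above the DMSO arrays, in INSIG2 and ACACA below them, and in ABCA1 the groups overlap.

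The sterol sensing genes were led by INSIG1, which keeps the SCAP and SREBP complex in the endoplasmic reticulum and is itself a target of SREBP. Its brightest probe set stood at 10.81, 10.67 and 10.81 in the CA arrays and 10.33, 10.40 and 10.35 in the DMSO arrays. The groups did not overlap, and the change was 0.40 ± 0.06 (limma adjusted p = 0.0499, n = 3 per group), with a 95% interval of 0.26 to 0.54. Its other probe sets gave 0.41 and 0.45, again with every CA array above every DMSO array. The call ended with housekeeping centring (0.35, limma adjusted p = 0.0761), without the _x_at and _s_at probe sets (0.40, limma adjusted p = 0.0761), with all probe sets tested as such (0.40, limma adjusted p = 0.131), with the covariate from all control transcripts (0.39, limma adjusted p = 0.213) and with the beta-actin covariate (0.37, limma adjusted p = 0.484). It also ended with a replicate block (0.40, limma adjusted p = 0.261) and without any 1 of the 6 arrays (limma adjusted p = 0.0960 to 0.217). INSIG1 was called in 4 of 16 alternatives at the 0.05 threshold, and its limma adjusted p ranged from 1.6e-05 to 0.484 over them.

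INSIG2, the paralog with the same retention role, lay the other way. It stood at 6.26, 6.34 and 6.36 in the CA arrays and 6.58, 6.54 and 6.48 in the DMSO arrays, so every CA array was below every DMSO array. The difference was -0.21 ± 0.05 (limma adjusted p = 0.200, n = 3 arrays per group), which did not pass.

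The transcripts of the regulators that act above these genes did not pass the test. SREBF1 stood at 6.33, 6.23 and 6.34 in the CA arrays and 6.64, 6.44 and 6.32 in the DMSO arrays, with overlap, and the difference was -0.16 ± 0.09 (limma adjusted p = 0.505). SREBF2 stood at 6.55, 6.63 and 6.54 in the CA arrays and 6.59, 6.56 and 6.35 in the DMSO arrays, with overlap. Its difference was 0.08 ± 0.08 (limma adjusted p = 0.741), and the 95% interval was -0.11 to 0.26. DMSO replicate 3 was the lowest DMSO array for both factors. SCAP, their escort, had 7.95, 7.91 and 7.96 in the CA arrays and 7.96, 7.91 and 7.83 in the DMSO arrays, a difference of 0.04 ± 0.05 with an interval of -0.09 to 0.17 (limma adjusted p = 0.820). Single arrays moved these small differences: without DMSO replicate 1 SREBF1 was at -0.079, and without DMSO replicate 3 SREBF2 was at 0.00061 and SCAP at 0.0031. The cleavage of SREBP precursors and the amounts of protein were not measured.

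Of the LXR targets MYLIP, ABCA1 and ABCG1 none passed the limma test, while MYLIP had an unadjusted p under 0.05. MYLIP, a ubiquitin ligase that removes lipoprotein receptors from the cell surface, stood at 8.10, 8.11 and 8.12 in the CA arrays and 7.88, 7.77 and 7.94 in the DMSO arrays. The CA arrays lay close together and above all DMSO arrays, at 0.25 ± 0.06 (limma adjusted p = 0.175, n = 3 arrays per group). The other 3 of its 4 brightest probe sets gave 0.24, 0.25 and 0.20 without overlap, and these 4 are all of the _s_at or _x_at types, while its 2 dimmer probe sets gave -0.32 and 0.0077 with overlap.

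ABCA1, which exports cholesterol to lipoprotein particles, stood at 6.15, 5.79 and 5.68 in the CA arrays and 5.74, 5.54 and 5.36 in the DMSO arrays. The groups overlapped, and CA replicate 1 was the highest. The difference was 0.32 ± 0.14 (limma adjusted p = 0.422, n = 3 arrays per group), and without that array it was 0.19. With the mean of its probe sets it was 0.15 and with the beta-actin covariate 0.60, neither past the threshold. ABCG1, a second exporter, was dim in all 4 of its probe sets, with a main value of 3.16, 3.32 and 3.35 in the CA arrays and 3.01, 3.48 and 3.55 in the DMSO arrays. Its probe sets gave differences of -0.28 to 0.33, so no level or direction is read from it. NR1H3, which encodes an LXR, had 5.20, 5.34 and 5.27 in the CA arrays and 5.42, 5.38 and 5.21 in the DMSO arrays, a difference of -0.07 ± 0.07 (limma adjusted p = 0.780), which ranged from -0.13 to -0.022 without 1 array. The sterol transporters STARD4 and NPC1 lay at 0.01 and 0.04 (limma adjusted p = 0.959 and 0.850), with overlapping groups.

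The fatty acid genes showed values in both directions, and 0 of 6 passed the adjusted threshold while 2 had an unadjusted limma p under 0.05. ELOVL6, which lengthens long-chain fatty acids, stood at 5.90, 5.72 and 5.66 in the CA arrays and 5.52, 5.58 and 5.49 in the DMSO arrays. The groups did not overlap, and the difference was 0.23 ± 0.07 (limma adjusted p = 0.267, n = 3 per group). All 3 of its probe sets gave 0.23 to 0.25, of which 1 was dim. ACACA, the carboxylase that makes malonyl-CoA, stood at 7.50, 7.36 and 7.32 in the CA arrays and 7.58, 7.58 and 7.57 in the DMSO arrays. Every CA array was below every DMSO array, with a difference of -0.18 ± 0.06 (limma adjusted p = 0.281, n = 3 per group), while its other probe set gave 0.14.

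FASN, the synthase that builds palmitate, had 6.53, 6.55 and 6.59 in the CA arrays and 6.67, 6.62 and 6.77 in the DMSO arrays. Its groups did not overlap, at -0.13 ± 0.06 (limma adjusted p = 0.421), and its other probe set gave 0.15. SCD, the desaturase that makes oleate, had 9.79, 9.59 and 9.58 in the CA arrays and 9.48, 9.56 and 9.57 in the DMSO arrays. The groups were separated by a narrow gap, and CA replicate 1 stood above the rest. The difference was 0.12 ± 0.07 (limma adjusted p = 0.567), and without that array it was 0.049. ACLY, which supplies cytosolic acetyl-CoA, had 10.36, 10.28 and 10.35 in the CA arrays and 10.27, 10.35 and 10.30 in the DMSO arrays, a difference of 0.03 ± 0.05 (limma adjusted p = 0.866). FADS2, a desaturase of polyunsaturated fatty acids, had 6.13, 6.46 and 6.09 in the CA arrays and 6.32, 6.22 and 6.23 in the DMSO arrays, a difference of -0.03 ± 0.10 (limma adjusted p = 0.931).

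The members were measured by 80 probe sets in all, of which 47 had a positive difference and 69 were brighter than the overall median. Of the 19 genes with more than 1 probe set above the median, 12 had such probe sets on both sides of 0. INSIG1, SQLE and ELOVL6 had all of their probe sets above 0, while FASN, ACACA, DHCR7 and HMGCS1 each had a second probe set of opposite sign. The probe sets of a gene share the same RNA and are not replicates.

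**Figure D3:**
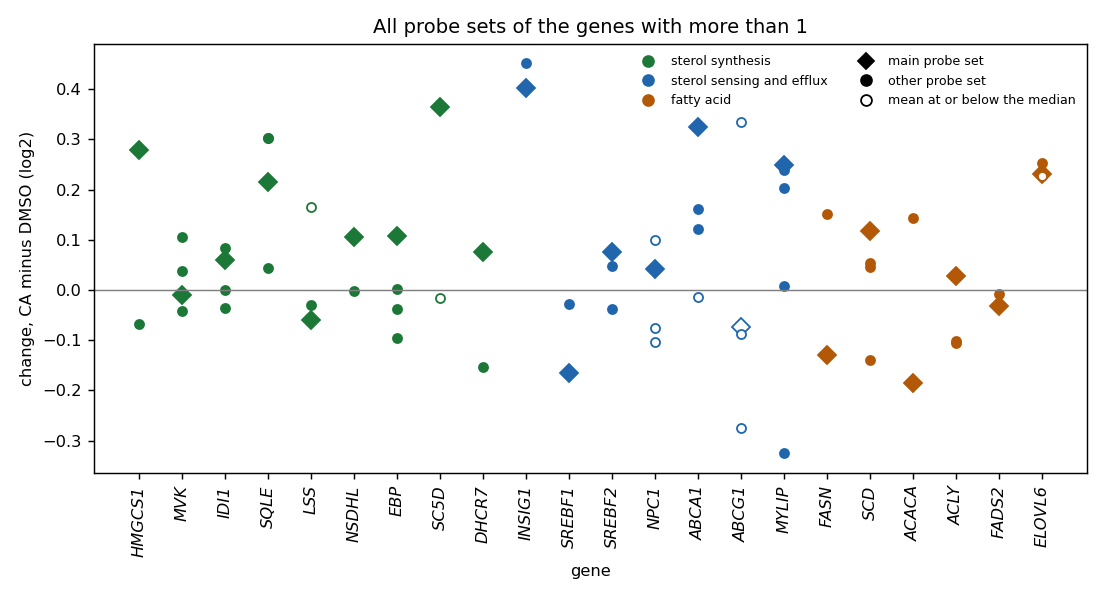
Difference between CA and DMSO on the log2 scale for every probe set of the 22 genes with more than 1, with the main probe set as a diamond and dim probe sets as open symbols. The probe sets of INSIG1 sit between 0.40 and 0.45, while those of ABCG1, all dim, spread from -0.28 to 0.33.

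Genes next to these pathways were read from the same fit. Of 24 further sterol genes 19 were measured, and 0 passed the adjusted limma threshold, while 6 (31.6%) had an unadjusted p under 0.05, beside 12.6% of all genes, and 5 of the 6 were higher. Of the 19 genes, 18 averaged more than the median over all values. In a fit of such genes alone, 2311 of 12622 had an unadjusted limma p under 0.05. With trend and robust variances, a setting under which 762 of all genes passed, ERLIN1, VLDLR, TMEM97 and RXRA passed as well (limma adjusted p = 0.0002 to 0.011). Those with the smallest p were ERLIN1, a membrane protein that restrains SREBP in sterol-replete cells (0.23 ± 0.05, limma adjusted p = 0.126), the lipoprotein receptor VLDLR (0.36 ± 0.08, limma adjusted p = 0.136), TMEM97, a sterol-binding membrane protein (0.22 ± 0.05, limma adjusted p = 0.163), and RXRA, the partner of LXR (0.19 ± 0.05, limma adjusted p = 0.215). ERLIN1 stood at 10.67, 10.65 and 10.62 in the CA arrays and 10.41, 10.42 and 10.43 in the DMSO arrays. Of this list only these 4 genes, picked by smallest p, were followed through the alternative settings. For all 4 the groups of arrays did not overlap. That held for 9 of the 19 genes (47.4%), beside 19.4% of all genes. Of the 9, 5 were higher and 4 lower, and the lower ones were RNF139, NPC2, SOAT1 and GGPS1. The median over the 19 genes was -0.00096, and 10 of the 19 differences were negative.

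Of 18 further fatty acid genes 16 were measured, with 0 past the adjusted limma threshold and 1 (6.25%) at an unadjusted p under 0.05, beside 12.6% of all genes. That gene was ACSL1, which activates long-chain fatty acids. It stood at 9.77, 9.63 and 9.78 in the CA arrays and 9.28, 9.41 and 9.39 in the DMSO arrays, at 0.37 ± 0.07 (limma adjusted p = 0.0884, n = 3 arrays per group). Under the trend and robust setting ACSL1 passed (limma adjusted p = 0.00023) and, like ERLIN1, with dim genes left out (limma adjusted p = 0.0313 for ACSL1 and 0.0337 for ERLIN1). FADS3, a relative of the desaturases, LPIN1, a phosphatidate phosphatase, and the citrate carrier SLC25A1 followed at -0.18, -0.14 and 0.08 (limma adjusted p = 0.452, 0.504 and 0.557). The median over the 16 genes was 0.0037.

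**Figure D4:**
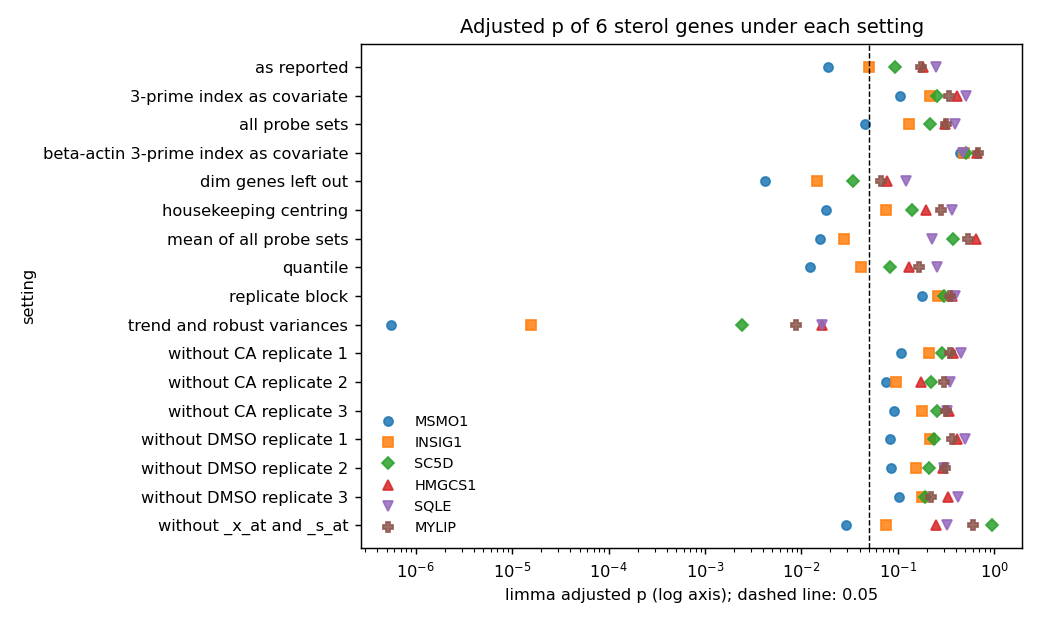
Limma adjusted p (log axis) of 6 sterol genes as reported and under each alternative setting, with the 0.05 threshold as a dashed line. With trend and robust variances all 6 genes lie left of the line, and without any 1 array none does.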

How the data were processed

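RNA from 6 samples was hybridised to Affymetrix U133 Plus 2.0 arrays, in 1 colour. The deposited log2 values, 1 per probe set and array, were made by the authors with RMA and the affy package, per the submitters' processing notes, with no version. RMA makes the arrays' distributions alike, so a shift of all transcripts would be removed. The scale is not stated and was taken as log2 from the range of 0.81 to 13.8. RNA was isolated by 2 methods, per the labels' protocols, and the sources used here do not say which array had which. Arrays have no sequencing depth, so precision is limited by their number.

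Of 54675 probe sets 41091 name 1 gene, 1801 name several, 62 are controls and the rest are unnamed here. For 41037 of the 41091 the symbol was read from RefSeq through the gene identifier, whether or not it changed. The fit used limma 3.58.1 (R 4.3.3) with lmFit, eBayes and a single term for treatment. P-values were two-sided, adjusted by Benjamini-Hochberg over 19775 genes and called under 0.05, with no filter. Differences run CA minus DMSO, with the standard errors of limma. A probe set is called dim where its mean does not exceed 3.75, the median over all values. The step was tested on 10 simulated data sets with 200 changed genes each, all above that median. The changes were 1.2, 1.5, 2 and 3-fold in equal parts. It recovered 17% of the 1.2-fold, 75.4% of the 1.5-fold, 94.4% of the 2-fold and 99.2% of the 3-fold changes, with 8.5 false calls on average. These shares depend on that mix, and in the real arrays the largest rise of any gene was 1.21 on the log2 scale. They need not hold for the members. Most changes of 1.2-fold were thus missed there. Array values are given for members past the threshold, the 6 smallest p of each role and 9 regulators. Of each further list the 4 smallest p are named with their differences, and array values are printed for the smallest p alone. The members and lists were chosen with earlier results of these data known.

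Alternatives tried were housekeeping centring, a further quantile normalization, removal of dim genes, the mean of a gene's probe sets, no _x_at or _s_at types, a replicate block, trend and robust variances, removal of each array, a 3' to 5' covariate, all probe sets tested, and an adjusted p under 0.1. The beta-actin covariate was added after results had been seen.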

Additional observations from a re-analysis of the deposited data

How the results depend on the processing

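The number of genes called was 115 and that of lipid members 2. Both were 0 with a 3' to 5' covariate, whether over all controls or beta-actin alone, 28 and 1 with all probe sets tested, 54 and 1 without the _x_at and _s_at types, and 762 and 6 with trend and robust variances. Dim genes left out gave 321 genes, the mean of probe sets 76, an adjusted p under 0.1 gave 260, and housekeeping centring 1 member. Leaving out 1 array gave 0 to 4 genes and 0 to 0 members by limma, with 9 to 11 of 33 members and 1952 to 2342 of 19775 genes at an unadjusted p under 0.05. With trend and robust variances HMGCS1, SQLE, SC5D and MYLIP passed beside MSMO1 and INSIG1, as did ERLIN1, VLDLR, TMEM97, RXRA and ACSL1 of the further lists. Of each further list only the 4 genes with the smallest p were followed through the settings. The replicate block gave 0 genes and 0 members. Same-numbered arrays did not deviate together (correlations of -0.0548 to 0.0161), so the block is no pairing. A covariate, a block or the loss of 1 array leaves fewer residual degrees of freedom than the 4 of the main fit. What that alone does to the counts was not tested.

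The sterol synthesis median (0.068) was 0.047 with the index, 0.0075 with beta-actin, 0.014 with housekeeping centring, 0.026 with the mean of probe sets and 0.048 to 0.087 without 1 array. The sensing and efflux median (0.040) was 0.068 with the index, -0.024 with beta-actin, -0.015 with housekeeping centring, 0.013 with the mean of probe sets and -0.0018 to 0.062 without 1 array, where the sign turned without CA replicate 3. The fatty acid median was 0.072 with beta-actin, -0.056 with housekeeping centring and -0.037 to 0.028 without 1 array. The cause of these shifts was not tested.

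Among single genes the sign turned for NSDHL (-0.018), EBP (-0.014) and FADS2 (0.11) with beta-actin, and for SCAP (-0.015) and ACLY (-0.026) with housekeeping centring. It turned for EBP (-0.0059), FASN (0.011) and ACLY (-0.059) with the mean of probe sets. Without the _x_at and _s_at types another probe set was read, and SC5D (-0.016), ABCG1 (0.33) and MYLIP (-0.32) turned. Without 1 array FADS2 ranged from -0.15 to 0.037 and ABCG1 from -0.24 to 0.028. None of these 9 genes had passed.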
